A study of Rattus norvegicus with 60 samples.

Results

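The genes described here are 8 members of the rat Cyp2a and Cyp2c families of cytochrome P450 enzymes: Cyp2c6v1, Cyp2c7, Cyp2c11, Cyp2c12, Cyp2c13, Cyp2a1, Cyp2a2 and Cyp2a3. They were chosen by symbol, and each had 1 probe set among those with a single gene symbol, so they are 8 of the 14217 genes tested. Expression was measured on 60 Affymetrix Rat Genome 230 2.0 arrays, 30 of hepatocytes (HC) and 30 of mesenchymal liver cells (MC), from Wistar rats of 8 weeks. Males received phenobarbital (PB, a barbiturate, 50 mg/kg) and were taken at 24 h or 14 d, with water (H2O) as the control in the sample labels. Females received the steroid cyproterone acetate (CPA, an antiandrogen and progestin, 100 mg/kg) in corn oil (CO, 10 ml/kg) and were taken at 24 h or 6 d. PB was given by gavage for the 24 h groups and in drinking water for the 14 d groups, and CPA once or on consecutive days. Each fraction had 3 arrays in every group except corn oil at 24 h, which had 5 arrays plus 4 of a second group with the code CO_Co, described like the first. The treatment protocol calls oil-treated rats the controls, while in the sample labels water is the control of PB, and the labels were followed. The labels do not say that replicates are separate animals, so p-values measure the spread between arrays.

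Cytochrome P450 enzymes are haem proteins of the endoplasmic reticulum that oxidise steroids, fatty acids and drugs. In the rat several Cyp2a and Cyp2c genes are classic markers of liver sex: pulses of pituitary growth hormone in males, acting through STAT5b, keep the male forms on, and the nearly continuous hormone of females keeps the female forms on, with the factors HNF6 (Onecut1) and CUX2 among those it raises. The nuclear receptors CAR and PXR raise other P450 genes after exposure to drugs, PB being the textbook activator of CAR and CPA a ligand of rat PXR.

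All 8 genes lie on chromosome 1 of the GRCr8 assembly in RefSeq, in separate stretches. The Cyp2a stretch holds Cyp2a3 (chr1:91299584-91307650), Cyp2a1 (chr1:91359278-91372554) and Cyp2a2 (chr1:91391492-91417158). The Cyp2c stretch holds Cyp2c11 (chr1:246175216-246211445), Cyp2c6v1 (chr1:247879058-247916804), Cyp2c7 (chr1:247966295-248022393), Cyp2c12 (chr1:248619887-248681945) and Cyp2c13 (chr1:248706787-248787239). Cyp2c12, a female form, and Cyp2c13, a male form, are neighbours in this list. The 250 bases before the start of transcription are shown for the Cyp2c genes of which the levels opposed each other, from the RefSeq promoter table (GRCr8), 5′ to 3′ on the gene's strand. They are Cyp2c11 (chr1:246174966-246175215, plus strand), Cyp2c13 (chr1:248787189-248787438, minus strand), Cyp2c12 (chr1:248677035-248677284, minus strand) and Cyp2c7 (chr1:247966144-247966393, plus strand). For Cyp2c7, Cyp2c12 and Cyp2c13 the start in that table lies inside the bounds of the gene given above. Capitals mark ATTGAT (the core bound by Onecut factors), CAAAGT (a core of HNF4 sites) and TATAAA (the TATA box), each on either strand.
Cyp2c11: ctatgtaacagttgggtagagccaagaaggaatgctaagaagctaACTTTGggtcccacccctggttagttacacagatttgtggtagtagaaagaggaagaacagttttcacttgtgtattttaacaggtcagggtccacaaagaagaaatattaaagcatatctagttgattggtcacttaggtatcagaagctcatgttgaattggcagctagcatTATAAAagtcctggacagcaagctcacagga
Cyp2c13: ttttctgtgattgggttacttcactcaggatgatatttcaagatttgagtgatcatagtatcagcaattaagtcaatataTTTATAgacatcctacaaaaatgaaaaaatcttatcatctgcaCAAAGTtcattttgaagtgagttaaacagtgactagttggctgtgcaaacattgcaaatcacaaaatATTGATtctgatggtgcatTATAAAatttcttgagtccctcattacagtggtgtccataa
Cyp2c12: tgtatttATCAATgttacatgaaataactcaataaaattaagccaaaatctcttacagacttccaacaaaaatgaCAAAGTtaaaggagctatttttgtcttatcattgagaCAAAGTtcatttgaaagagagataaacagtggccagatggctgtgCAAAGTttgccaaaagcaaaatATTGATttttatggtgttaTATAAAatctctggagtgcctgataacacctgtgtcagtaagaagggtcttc
Cyp2c7: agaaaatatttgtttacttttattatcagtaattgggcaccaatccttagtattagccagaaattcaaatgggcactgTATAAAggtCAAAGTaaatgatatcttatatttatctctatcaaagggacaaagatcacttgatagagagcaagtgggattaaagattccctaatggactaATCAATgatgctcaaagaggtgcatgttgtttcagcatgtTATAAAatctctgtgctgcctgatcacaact
Of the 6 members with an entry in the table (Cyp2a1, Cyp2a3 and these 4), 3 held ATTGAT within these 250 bases: Cyp2c12 with 2 matches, Cyp2c7 with 1 and Cyp2c13 with 1. The motif stood in 7.1% of the 33469 windows of the same length in the table. CAAAGT stood in 4 of the 6, with 3 matches in Cyp2c12 and 1 each in Cyp2c7, Cyp2c11 and Cyp2c13, against 12.9% of all windows. TATAAA stood in all 6, against 12.9% of all windows. The STAT5 pattern TTCNNNGAA stood in 0 of 6 (7.67% of all windows), TGTTTAC, a FOXA core, in 1 of 6 (Cyp2c7, 3.21%), and AGGTCA, a nuclear receptor half-site, in 2 of 6 (Cyp2c7, where it overlaps CAAAGT, and Cyp2c11, 14.1%). A match of letters is a description of these windows and not a binding site. Aligned end to end, Cyp2c12 and Cyp2c13 had identical bases in 178 of 282 columns (63.1%), and the other pairs had 48.8% to 57%. So the female form and the male form with the most similar windows both carried ATTGAT, and the male form Cyp2c11 had none in its window.

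Values are log2 expression on the RMA scale, on which a difference of 1 is a doubling. The brightest gene checked, Alb (albumin), stood at 13.77 or above on every HC array, so members near 12 or 13 lie close to the top of the scale, where differences are compressed. Levels of different probe sets were not set against each other. The mean of 17 hepatocyte markers ran from 11.25 to 11.89 over the HC arrays and from 6.51 to 10.40 over the MC arrays, and the mean of 10 Kupffer cell markers from 2.91 to 6.42 and from 9.48 to 11.14. Alb was bright in MC too (12.11 to 13.84), so hepatocyte transcripts were abundant in that fraction. The Y-linked gene Eif2s3y stood between 5.88 and 7.41 on every PB and water array and between 0.71 and 1.43 on every CPA and corn oil array. The 4 arrays of PB and water at 24 h that are labelled female (replicate 3 of each group) therefore had male levels of it, and no sex term was used. A list of Y-linked genes and Xist had 3 genes measured. In HC at 24 h, 1 was higher in water than in corn oil and 2 were lower (limma, adjusted p under 0.05). The medians of single arrays lay within 3.25 to 3.39 (HC) and 3.39 to 3.44 (MC).

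**Figure D1:**
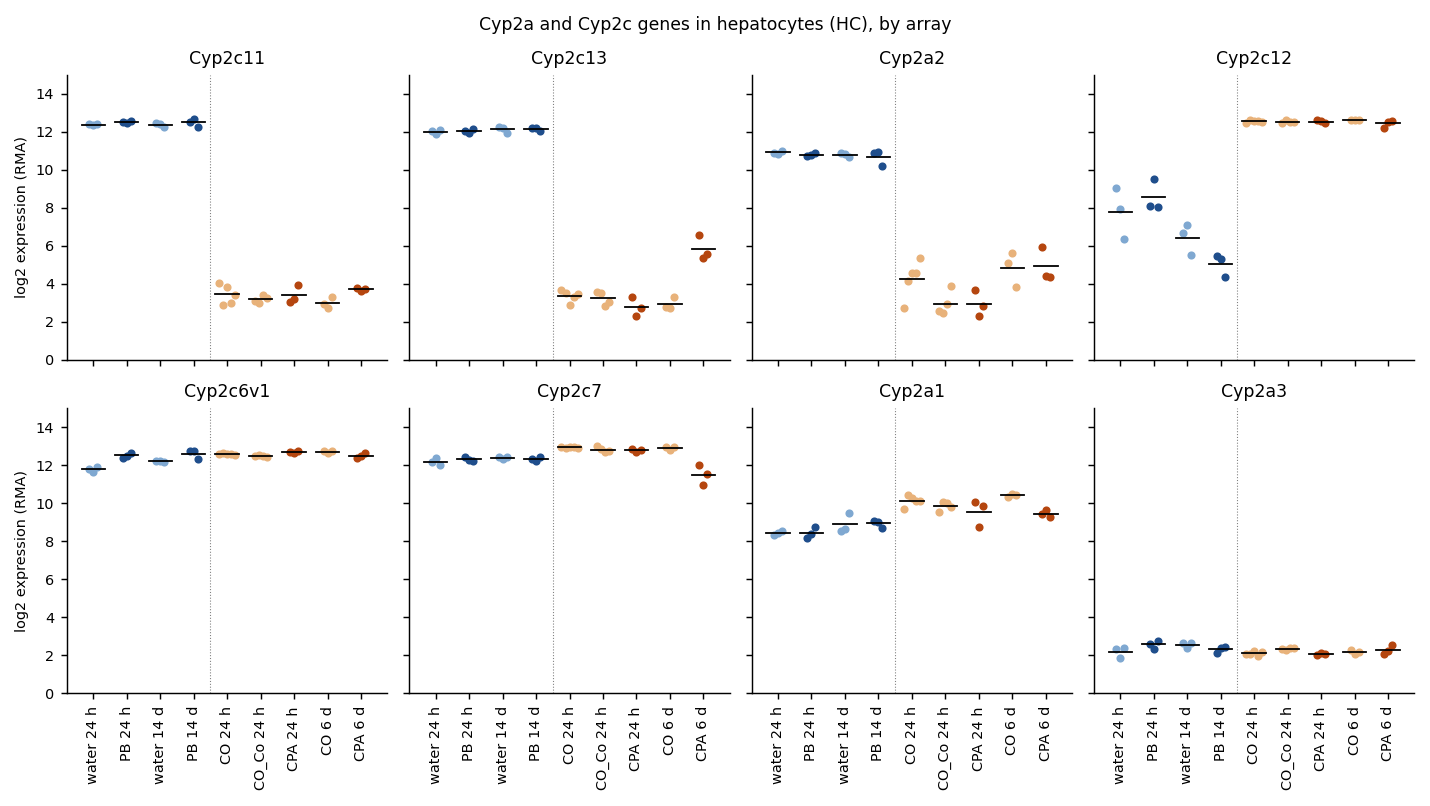
Log2 expression (vertical axis) of the 8 genes in hepatocytes, 1 point per array and a bar at each group mean. Male groups stand left of the dotted line and female groups right of it. Cyp2c11, Cyp2c13 and Cyp2a2 were high in all male groups, Cyp2c12 was high in all female groups, Cyp2c13 was raised in CPA at 6 d and Cyp2c7 was lower there.

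The vehicle groups at 24 h show how these genes stood before any compound. Water animals were male and corn oil animals female, so sex and vehicle cannot be told apart in this comparison. In hepatocytes, 7 of the 8 genes differed between water and corn oil at an adjusted p under 0.05 (limma, Benjamini-Hochberg), against 9.88% of all genes, 3 of them higher in water and 4 lower. In MC 4 of 8 differed, against 0.535% of all genes.

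Cyp2c11, the main male form, which hydroxylates testosterone, stood at 12.41, 12.32 and 12.37 in the water HC arrays and at 4.04, 2.89, 3.84, 3.00 and 3.40 in the corn oil arrays. Every male array lay far above every female array, by 8.93 in the mean (SE 0.21, adjusted p = 4.02e-22). Cyp2c13, another male steroid hydroxylase, stood at 12.02, 11.85 and 12.07 in water and at 3.66, 3.53, 2.87, 3.31 and 3.45 in corn oil. Its difference was 8.62 (SE 0.23, adjusted p = 7.34e-21), again with no overlap. Its probe set carries the suffix _s, which marks probes that can match more than 1 transcript, so related Cyp2c transcripts may add to its value.

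Cyp2a2, the male steroid hydroxylase of the Cyp2a group, stood at 10.89, 10.84 and 10.99 in water and at 2.74, 4.15, 4.54, 4.58 and 5.33 in corn oil. The male arrays were all higher, by 6.64 (SE 0.45, adjusted p = 2.16e-11), and the female arrays were much more spread. A further probe set lists both Cyp2a2 and Cyp2a1. It did not show the opposite patterns of the single-gene probe sets, standing at 10.40 ± 0.10 (SD, n = 3) in water and 10.41 ± 0.20 (n = 5) in corn oil.

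Cyp2c12, the female form, which hydroxylates steroid sulfates, stood at 9.03, 7.92 and 6.38 in the water HC arrays and at 12.45, 12.61, 12.55, 12.58 and 12.51 in corn oil. Female arrays were high and tight and male arrays low and variable, and the difference was -4.77 (SE 0.39, adjusted p = 1.10e-09). The SD between HC arrays of a group ran from 0.02 (corn oil, 6 d) to 1.33 (water, 24 h) for this gene, while the fit takes 1 spread for all groups. Cyp2a1, which hydroxylates testosterone and predominates in adult females, was lower in water by 1.69 (8.44 ± 0.11 against 10.13 ± 0.27, adjusted p = 9.52e-06). Cyp2c7, a retinoic acid hydroxylase, was lower there by 0.75 (12.19 ± 0.17 against 12.94 ± 0.03, adjusted p = 4.66e-04).

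Cyp2c6v1, which both sexes express and PB induces, was lower in water too, by 0.81 (11.79 ± 0.11, n = 3, against 12.59 ± 0.04, n = 5, adjusted p = 7.76e-07). Cyp2a3, known mainly from lung and nasal tissue, was low on every array of both fractions, with group means spanning 0.73 over the 18 groups and no call in any comparison. Among 19 measured genes of a list of other sex-dependent liver genes, 10 were higher in water and 7 lower. In MC the differences of Cyp2c11 (7.39), Cyp2c13 (7.76), Cyp2a2 (4.83) and Cyp2c12 (-5.95) were called, and those of Cyp2c6v1 (-0.19), Cyp2c7 (-1.57) and Cyp2a1 (-0.69) were not (adjusted p = 0.949, 0.318 and 0.794).

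Between fractions, 7 of the 8 genes were higher in HC than in MC in water at 24 h, against 57.1% of all genes differing either way, and 7 of 8 in corn oil at 24 h, against 70.2%. The share called is high in all genes, so these counts say little about the family. Cyp2a1 had a difference of 3.95 in water (SE 0.53, adjusted p = 1.33e-08) and 4.95 in corn oil (SE 0.41, adjusted p = 6.66e-15). Cyp2c6v1 had 1.50 and 2.11 (adjusted p = 0.00592 and 1.79e-06). With a term for the labelled sex, 1 of 8 (Cyp2a1) was called in corn oil. Every corn oil array is labelled female, so the term could be estimated only within PB and water at 24 h. There the arrays labelled female had male levels of Eif2s3y, so this setting cannot test the corn oil difference.

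The vehicles were compared over time as well. Corn oil at 6 d against 24 h gave no call among the 8 genes or among all genes in HC (0%; limma; 696 genes at an unadjusted p under 0.05) or in MC (0%; 529). CO_Co against CO gave no call among the 8 in HC (0.0703% of all genes; 548 at an unadjusted p under 0.05) or in MC (0%; 384). In HC, Cyp2a2 was the member that differed most between these corn oil groups, at 2.56, 2.44, 2.91 and 3.89 in CO_Co (difference -1.32, SE 0.41, adjusted p = 0.841). Water at 14 d against 24 h gave 2 of 8 called in HC (14.3% of all genes): Cyp2c6v1 was higher at 14 d by 0.43 (12.22 against 11.79, adjusted p = 0.00649) and Cyp2c12 lower by 1.37 (6.40 against 7.77, adjusted p = 0.0338). In MC that comparison called 0 of 8 by limma (17.9% of all genes; 4747 at an unadjusted p under 0.05).

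In hepatocytes 1 of the 8 genes, Cyp2c6v1, was called higher after PB at 24 h, and 0 were called at 14 d. Its PB means were alike, at 12.52 at 24 h and 12.59 at 14 d, while its water means were 11.79 and 12.22. Cyp2c6v1 stood at 12.41, 12.50 and 12.64 after 24 h of PB and at 11.81, 11.67 and 11.89 in water. All 3 treated arrays were higher than all 3 controls, and the rise was 0.73 (SE 0.10, 1.66-fold, adjusted p = 0.00155). This was 1 of 11 genes called (0.0774% of all genes). It passed with each of the 6 arrays left out (adjusted p from 0.00208 to 0.0327), and did not pass when only these 6 arrays were fitted (adjusted p = 0.276).

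The other 7 members did not pass at 24 h of PB. Cyp2c11 stood at 12.51, 12.43 and 12.54 against the 12.41, 12.32 and 12.37 given above, and the groups did not overlap. The change of 0.12 was small against the spread of the fit (SE 0.23, adjusted p = 0.988). That spread is shared by all HC groups, with SDs of 0.06 in PB, 0.04 in water and 0.51 in corn oil at 24 h. Cyp2c12 was highest among the uncalled changes, at 0.79 (8.11, 9.52 and 8.06 against 9.03, 7.92 and 6.38, adjusted p = 0.789), with overlapping groups. Cyp2a3 stood at 0.39 (adjusted p = 0.502), and Cyp2c7, Cyp2c13, Cyp2a1 and Cyp2a2 lay between -0.12 and 0.13. Their 95% intervals ran from -1.15 to 0.91 for Cyp2a2, the widest of these, and from -0.19 to 0.44 for Cyp2c7, the narrowest. For Cyp2a2 the SD was 0.07 in PB and 0.08 in water, against 0.96 in corn oil at 24 h. So these intervals do not measure the spread of the PB and water arrays alone.

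After 14 d of PB, 0 of 8 genes were called in HC by limma (0.0633% of all genes; 1576 at an unadjusted p under 0.05). Cyp2c6v1 stood at 12.73, 12.73 and 12.31 in PB and at 12.23, 12.24 and 12.19 in water. The PB arrays were all higher and replicate 3 the least so, and the change was 0.37 (SE 0.10, adjusted p = 0.177). Without PB replicate 3 it was 0.51 and passed (adjusted p = 0.0270). Cyp2c12 stood at 5.46, 5.29 and 4.38 in PB and at 6.67, 7.06 and 5.48 in water. These groups did not overlap, by a margin of a few hundredths, and the change was -1.36 (SE 0.43, adjusted p = 0.216). Without water replicate 3 it was -1.82 (adjusted p = 0.0160), and the count over all genes rose from 9 to 747.

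At 14 d the replicate numbers were taken to pair PB with water arrays, since every same-numbered pair's deviations correlated above 0.1. Arrays of unlike number were not compared, so pairing is not established. With these pairs as a block 163 genes passed instead of 9, still with 0 of the 8 members (Cyp2c6v1 adjusted p = 0.0501, Cyp2c12 adjusted p = 0.0843). The difference between the PB effects at 14 d and 24 h called 0 of 8 in HC by limma (0.0352% of all genes; 1343 at an unadjusted p under 0.05). It was -0.35 for Cyp2c6v1 (adjusted p = 0.433) and -2.15 for Cyp2c12 (adjusted p = 0.272).

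Other genes of the same kind give the setting. Of 18 measured targets of CAR and PXR outside the family, 1 was called at 24 h of PB in HC and 1 at 14 d, both times Ugt2b1, a glucuronosyltransferase, with rises of 3.44 (adjusted p = 4.01e-06) and 2.25 (adjusted p = 0.00278). The median change of that list was 0.70 and 0.65. Of 17 other Cyp2 genes measured, out of 27 listed, 0 were called at either time, and of 16 receptors and partner proteins of P450 genes 0 were called. The list of CAR and PXR targets named 25 genes. Listed genes that were not among those tested are not covered by these counts. Of 19 other sex-dependent liver genes 0 were called at either time.

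**Figure D2:**
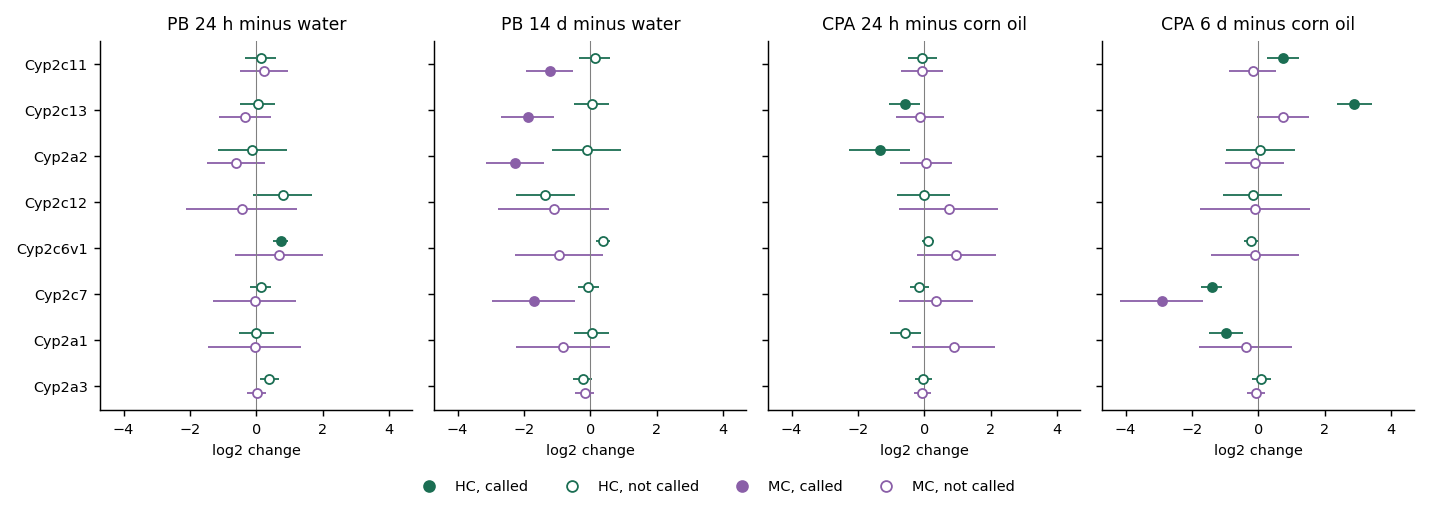
Treated minus control differences in log2 expression (horizontal axis) for the 8 genes, HC in green and MC in purple, with 95% confidence intervals. Filled points passed an adjusted p under 0.05. In HC Cyp2c6v1 passed after PB at 24 h (0.73), and at 6 d of CPA Cyp2c13 (2.88) and Cyp2c11 (0.73) were higher and Cyp2c7 (-1.41) and Cyp2a1 (-0.98) lower.

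CPA at 24 h in hepatocytes went with lower values of Cyp2c13 and Cyp2a2, both already low in females, and the other 6 genes did not pass. Most of these values lie near the bottom of the scale. With 2 of 8 called, both lower, the share was 34.2% in all genes. Cyp2a2 stood at 3.66, 2.28 and 2.84 after CPA, against 2.74 to 5.33 in corn oil as given above. The groups overlapped, and the change was -1.34 (SE 0.45, adjusted p = 0.0207). CO_Co stood at 2.95 ± 0.66 (n = 4), like CPA at 2.92 ± 0.69 (n = 3), and against both corn oil groups together the change was -0.76 and did not pass (adjusted p = 0.220).

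Cyp2c13 stood at 3.29, 2.32 and 2.70 after 24 h of CPA, overlapping with corn oil, and the change was -0.59 (SE 0.23, adjusted p = 0.0465). It passed in 2 of the 8 fits that left out 1 array, being lost without CPA replicate 2 or 3 or corn oil replicate 1, 2, 4 or 5 (adjusted p up to 0.327). Cyp2a2 passed in 5 of 8 and was lost without CPA replicate 2 or 3 or corn oil replicate 5 (adjusted p up to 0.156). Cyp2a1 stood at 10.06, 8.74 and 9.86 against 9.71, 10.42, 10.29, 10.10 and 10.12, with 1 CPA array far below the rest (change -0.58, adjusted p = 0.0527). Cyp2c7 (-0.15), Cyp2c6v1 (0.11), Cyp2c11 (-0.06), Cyp2c12 (-0.02) and Cyp2a3 (-0.03) did not pass. Cyp2c6v1, the member raised by PB, stood at 12.68, 12.66 and 12.77 against 12.57, 12.65, 12.59, 12.61 and 12.55: the groups did not overlap, and the 95% interval of the change was -0.08 to 0.30.

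Of 18 measured CAR and PXR targets outside the family, 13 rose and 0 fell at this time (median 1.32), among them Abcc3, an efflux transporter (2.68), Gstm1, a glutathione transferase (2.53) and Ephx1, an epoxide hydrolase (2.52). Of 17 other Cyp2 genes 1 rose and 6 fell, including Cyp2j3 (-2.26), Cyp2t1 (-1.75), Cyp2j4 (-1.70) and Cyp2d3 (-1.61). Of 17 hepatocyte markers 2 were higher and 8 lower, and the marker mean ran from 11.25 to 11.43 after CPA and from 11.63 to 11.80 in corn oil. The part of that difference in the P450 changes was not tested.

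After 6 d of CPA 4 of the 8 genes differed from corn oil in hepatocytes. The male form Cyp2c13 was higher by 2.88 and the male form Cyp2c11 by 0.73, while Cyp2c7 was lower by 1.41 and Cyp2a1 by 0.98. Over all genes 24.2% were called, and 2 members were higher (15% of all genes) and 2 lower (9.29%). Cyp2c12, Cyp2a2, Cyp2c6v1 and Cyp2a3 did not pass. The median over the 8 members was -0.06, and over all genes -0.01.

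Cyp2c13 stood at 6.55, 5.37 and 5.55 after 6 d of CPA and at 2.80, 2.72 and 3.31 in corn oil. The treated arrays were all well above the controls (SE 0.26, adjusted p = 4.44e-09), and remained far below the male arrays, of which the lowest stood at 11.85. The call held with each of the 6 arrays left out, the change running from 2.52 to 3.11. The effect at 6 d exceeded that at 24 h by 3.48 (SE 0.34, adjusted p = 1.47e-07). This includes the change of -0.59 at 24 h, which lay near the bottom of the scale and passed in 2 of 8 fits without 1 array.

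Cyp2c7 stood at 11.99, 10.99 and 11.52 in CPA and at 12.96, 12.82 and 12.94 in corn oil. Every CPA array was lower (SE 0.15, adjusted p = 1.14e-07), and all 3 were also below the lowest male array, at 12.02. The change ran from -1.65 to -1.15 with 1 array left out. The effect at 6 d minus that at 24 h was -1.25 (SE 0.20, adjusted p = 1.45e-04).

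Cyp2a1 stood at 9.41, 9.66 and 9.26 in CPA and at 10.34, 10.48 and 10.44 in corn oil. The CPA arrays were all lower (SE 0.26, adjusted p = 0.00525), with adjusted p up to 0.0305 when 1 array was left out. Its effect at 6 d minus that at 24 h did not pass (-0.40, 95% interval -1.11 to 0.30, adjusted p = 0.518). The probe set shared with Cyp2a2 stood at 10.25 ± 0.17 (n = 3) in CPA and 10.77 ± 0.04 (n = 3) in corn oil.

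Cyp2c11 stood at 3.77, 3.62 and 3.74 in CPA and at 2.93, 2.71 and 3.30 in corn oil. The groups did not overlap (SE 0.23, adjusted p = 0.0217), but corn oil at 24 h reached 4.04, above every CPA array. The call was lost in 4 of 6 fits with 1 array left out (without CPA replicate 1 or 3, or corn oil replicate 1 or 2). These values lie near the bottom of the scale. They are far from the male level, of which the lowest HC array stood at 12.23.

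Cyp2c12, the female form, was not called, unlike Cyp2c7 and Cyp2a1. It stood at 12.19, 12.52 and 12.58 in CPA and at 12.62, 12.59 and 12.61 in corn oil, every CPA array slightly lower. The change was -0.18 (SE 0.43, 95% interval -1.07 to 0.72, adjusted p = 0.819), near the top of the scale. The SDs were 0.21 in CPA and 0.02 in corn oil, while the SE takes in all HC groups, with an SD of 1.33 in water at 24 h. Cyp2c6v1 stood at 12.39, 12.48 and 12.62 against 12.73, 12.66 and 12.73, likewise without overlap (-0.21, adjusted p = 0.152). Cyp2a2 stood at 5.93, 4.42 and 4.37 against 5.08, 5.63 and 3.84, with overlap (0.06, adjusted p = 0.949).

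The difference between the CPA effects at 6 d and 24 h passed for 2 of 8 genes in HC (14.5% of all genes), Cyp2c13 and Cyp2c7. Cyp2c11 had 0.79 (adjusted p = 0.0966) and Cyp2a2 1.40 (adjusted p = 0.183). So the late rise of Cyp2c13 and the late fall of Cyp2c7 were the changes with time that passed.

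**Figure D3:**
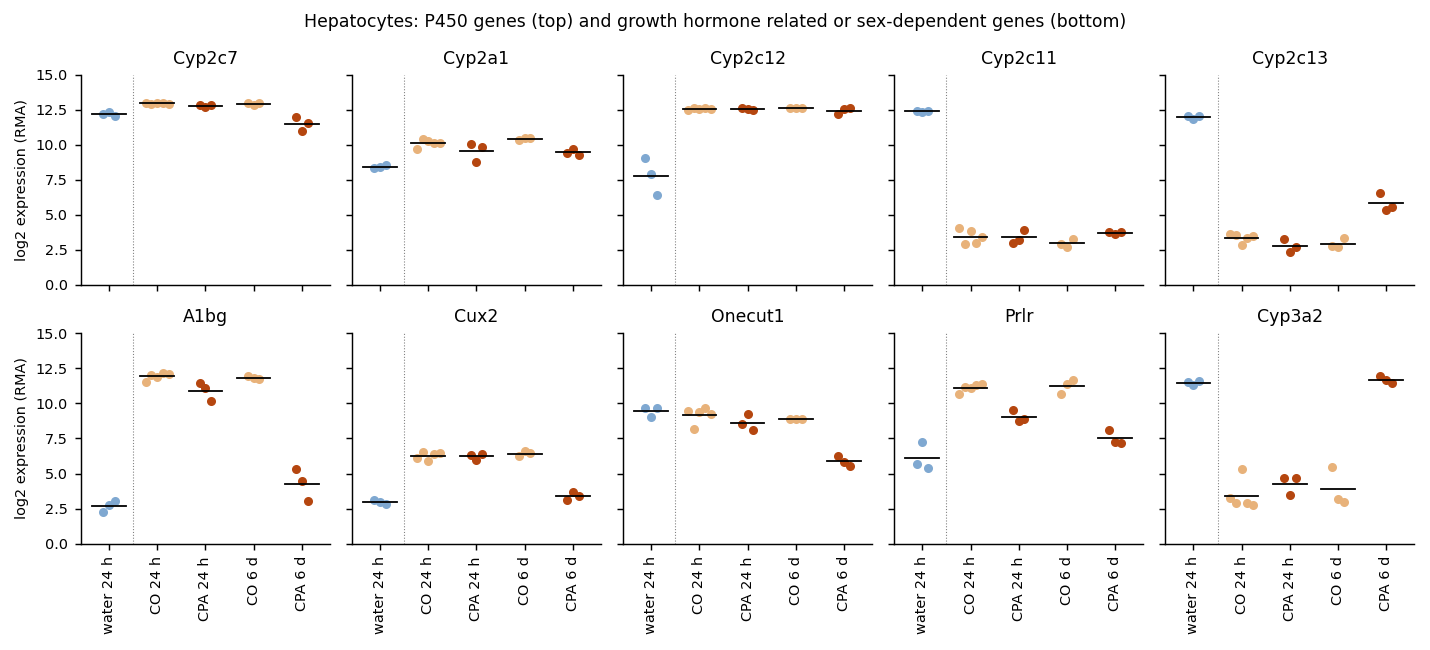
Log2 expression (vertical axis) in hepatocytes of 5 P450 members (top) and of 5 genes linked to sex or growth hormone (bottom), 1 point per array with group means, for male water controls (left of the dotted line) and for female corn oil and CPA groups. At 6 d of CPA, A1bg, Cux2, Prlr and Cyp3a2 stood nearer to male than to female values, Cyp2c13 was raised in part, and Cyp2c12 and Cyp2c11 stayed near female values.

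Genes of growth hormone signalling and of liver sex changed in the same arrays. Of 14 measured growth hormone genes, 1 rose and 7 fell at 6 d of CPA in HC. Cux2, a repressor of male genes in female liver, stood at 3.09, 3.67 and 3.42 in CPA and at 6.25, 6.60 and 6.44 in corn oil, now slightly above the male water arrays (2.79 to 3.08 at 24 h; change -3.03, adjusted p = 2.03e-11). Onecut1 stood at 6.28, 5.85 and 5.54 against 8.88, 8.87 and 8.87 (change -2.98, adjusted p = 2.48e-04). In the vehicles at 24 h Onecut1 stood at 9.43 ± 0.37 (n = 3) in water and 9.19 ± 0.57 (n = 5) in corn oil, and in water at 14 d at 6.27 ± 1.73 (n = 3). Prlr, the prolactin receptor, fell by 3.72 (adjusted p = 1.08e-05), and Bcl6, a repressor that is higher in male liver, rose by 2.62 (adjusted p = 0.0205).

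Of 19 other sex-dependent liver genes, 3 rose and 7 fell at 6 d. A1bg, a female plasma protein, stood at 5.32, 4.50 and 3.01 in CPA and at 11.96, 11.79 and 11.77 in corn oil (change -7.57, adjusted p = 5.10e-14). Sult1c3, a sulfotransferase, changed by -4.66 (adjusted p = 4.94e-11). Cyp3a2, a male form that PXR also raises, stood at 11.93, 11.64 and 11.43 against 5.49, 3.18 and 2.93 (change 7.80, adjusted p = 8.08e-11), within the range of male levels. These genes moved by more than any of the 8 members.

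Of 18 CAR and PXR targets outside the family, 11 rose and 1 fell at 6 d (median 1.41), and of 17 other Cyp2 genes 2 rose and 7 fell, including Cyp2d3 (-2.43), Cyp2c23 (-1.22) and Cyp2e1 (-1.22). Among 16 receptors and partner proteins 2 rose and 3 fell, the PXR gene Nr1i2 among those lower (-0.65, adjusted p = 0.0382). Some markers of other cells were also higher in these arrays. The Kupffer cell mean ran from 6.11 to 6.42 in CPA and from 4.66 to 5.05 in corn oil, with 2 of 10 called (Adgre1 and Cybb), and the cholangiocyte mean from 3.69 to 4.04 and from 3.12 to 3.15, with 2 of 6 called (Epcam and Tff3). The sinusoidal endothelial mean was at most 4.03 in CPA and at least 4.08 in corn oil, with 0 of 9 called, and the stellate cell mean from 3.43 to 3.58 and from 3.35 to 3.59, with 1 of 12 higher (Rgs5). The hepatocyte mean ran from 11.33 to 11.46 and from 11.62 to 11.77, with 1 of 17 higher and 8 lower. Their part in the P450 changes was not tested.

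In a bulk sample such as the mesenchymal fraction, fewer cells of a type and less RNA per cell cannot be told apart, and the hepatocyte marker mean differed between MC arrays. Cyp2c6v1 and Cyp2c7 ran with that mean. The corn oil array with the lowest marker mean (6.51) had Cyp2c6v1 at 8.15 and Cyp2c7 at 9.24, and the one with the highest (10.40) had 12.12 and 12.30. Alternatives with the marker mean as a covariate were therefore computed for the 4 comparisons of treated and control MC groups.

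**Figure D4:**
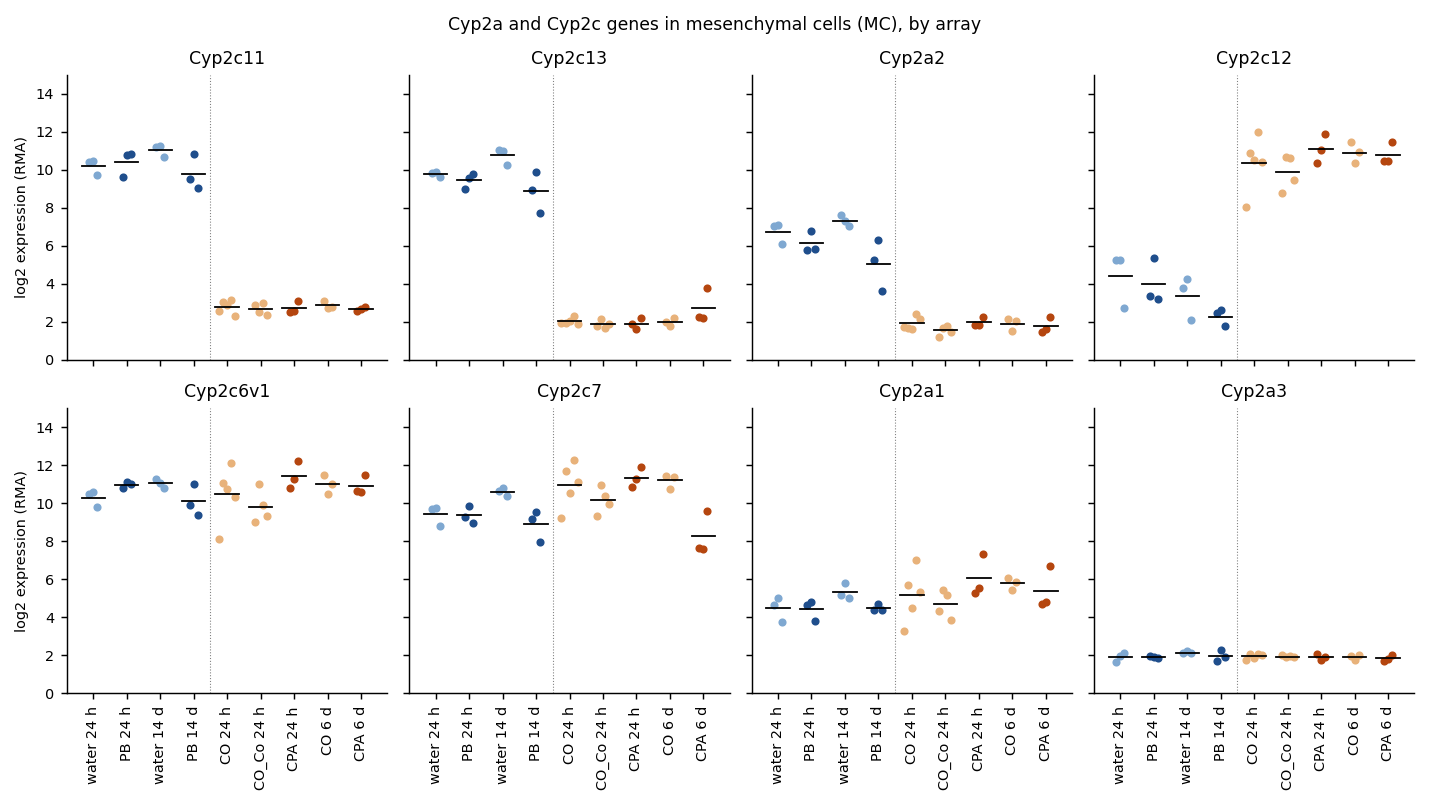
Log2 expression (vertical axis) of the 8 genes in mesenchymal cells, 1 point per array and a bar at each group mean, male groups left of the dotted line and female groups right of it. Cyp2c11, Cyp2c13 and Cyp2a2 were lower in PB at 14 d than in water at 14 d, and Cyp2c7 was lower in CPA at 6 d than in corn oil at 6 d (8.29 against 11.21).

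PB at 24 h called 0 of 8 genes in MC by limma, and 0 of all genes (0%; 446 at an unadjusted p under 0.05). Cyp2c6v1 stood at 10.81, 11.11 and 10.99 in PB and at 10.47, 10.59 and 9.81 in water. The PB arrays were all higher, by 0.68 in the mean (SE 0.64, adjusted p = 0.999). With the mean of the hepatocyte markers as covariate the change was 1.15 and passed (adjusted p = 0.0341). The marker mean was 8.84 to 9.72 in PB and 9.20 to 10.13 in water.

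After 14 d of PB 4 of 8 genes were lower in MC (18.4% of all genes called, 9.02% lower), the male forms Cyp2c11, Cyp2c13 and Cyp2a2 and also Cyp2c7. The median over the 8 was -1.17, and over all genes 0.02. Cyp2a2 stood at 5.25, 6.27 and 3.61 in PB and at 7.61, 7.30 and 7.04 in water, all PB arrays lower (-2.27, SE 0.43, adjusted p = 0.00318). Cyp2c13 stood at 8.95, 9.89 and 7.70 against 11.02, 10.99 and 10.22, also without overlap (-1.89, SE 0.39, adjusted p = 0.00487). Replicate 3 was the lowest PB array for both. Cyp2c11 stood at 9.52, 10.80 and 9.01 against 11.16, 11.22 and 10.65, with overlap (-1.23, SE 0.34, adjusted p = 0.0197). Cyp2c7 stood at 9.18, 9.56 and 7.96 against 10.66, 10.81 and 10.37, without overlap (-1.71, SE 0.60, adjusted p = 0.0498). For Cyp2a2, Cyp2c13 and Cyp2c11 the PB arrays had SDs of 1.34, 1.10 and 0.92, the largest of any MC group. The fit takes 1 spread for all MC groups, including female groups where these genes were low, such as corn oil at 24 h (SD 0.36, 0.17 and 0.33). So their SEs do not measure the spread of the compared groups alone.

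The hepatocyte markers moved with these falls. Their mean was 8.31, 9.23 and 7.79 in PB and 10.29, 10.28 and 10.05 in water, with 5 of 17 lower and 0 higher, and the PB array lowest in the markers was the lowest in all 4 genes. With the marker mean as a covariate 0 of 8 passed by limma, and the number of genes called fell to 124 from 2614. Cyp2a2 was then at -1.57 (adjusted p = 0.0520), Cyp2c13 at -1.35 (0.0821), Cyp2c11 at -0.77 (0.232) and Cyp2c7 at -0.18 (0.724). The covariate had 1 slope per gene over all MC arrays, including female arrays where Cyp2a2, Cyp2c13 and Cyp2c11 stayed low. So it may correct these male forms too little, and their remaining values are not free of the marker difference. Cyp2c6v1, Cyp2c12 and Cyp2a1 changed from -0.96, -1.11 and -0.82 to 0.70, 0.75 and 0.80, none of these values passing the test. Kupffer markers had 4 of 10 higher and sinusoidal endothelial markers 2 of 9.

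The calls also differed in how they stood up to leaving out arrays. Cyp2a2 and Cyp2c13 passed in all 6 fits without 1 array. Cyp2c11 passed in 2 of 6 and was lost without PB replicate 1 or 3 or water replicate 1 or 2. Among these 6 fits Cyp2c7 passed only without PB replicate 2 (adjusted p = 0.0453), and its adjusted p reached 0.193 in the others. In a fit of the PB and water arrays of 14 d alone, Cyp2c13 and Cyp2c11 did not pass, while Cyp2a2 and Cyp2c7 did. Without 1 array the number of genes called ran from 342 (without PB replicate 1) to 2546 (without water replicate 3). Among genes outside the family, 11 of 19 sex-dependent liver genes fell, including Sult1e1 (-3.53), Obp3 (-2.85), Cyp2c22 (-2.83) and Akr1c1 (-2.82), and 5 of 17 other Cyp2 genes fell, with Cyp2e1 at -3.47. Nr1i3, the gene of CAR, fell by 2.02 (adjusted p = 3.10e-04). The median change was -1.93 over the sex-dependent list and -1.83 over the hepatocyte markers. These values are without the marker covariate, and the part of the marker difference in them was not tested.

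The PB effect at 14 d differed between the fractions for 3 of 8 genes (10.1% of all genes), HC minus MC being 1.36 for Cyp2c11 (SE 0.43, adjusted p = 0.0349), 1.93 for Cyp2c13 (SE 0.47, adjusted p = 0.00794) and 2.16 for Cyp2a2 (SE 0.68, adjusted p = 0.0360). The Cyp2a2 call was lost with array weights (adjusted p = 0.0618). In HC these genes stood at 0.12, 0.03 and -0.11. Cyp2c7 had 1.65 and did not pass (adjusted p = 0.0851). At 24 h the difference between fractions called 0 of 8 by limma (0%; 614 genes at an unadjusted p under 0.05). Between times in MC, the PB effect differed for 0 of 8 (0.00703% of all genes; 1482 at an unadjusted p under 0.05), with values of -1.66 for Cyp2c7 and -1.65 for Cyp2a2.

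CPA at 24 h called 0 of 8 genes in MC by limma (2.54% of all genes; 1933 at an unadjusted p under 0.05), and the 8 changes lay between -0.13 and 0.96. Cyp2c6v1 had the highest, 0.96 (SE 0.57, adjusted p = 0.505), or 0.55 with the marker covariate (adjusted p = 0.0998). Of 18 CAR and PXR targets outside the family 7 rose, among them Cyp3a23-3a1 (4.95), Ugt2b1 (3.68) and Gstm1 (3.46). The test of the CPA effect at 24 h between fractions called 0 of 8 (limma, 8.43% of all genes; 2895 at an unadjusted p under 0.05).

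CPA at 6 d lowered 1 of the 8 in MC, Cyp2c7 (2.23% of all genes called). It stood at 7.66, 7.61 and 9.61 in CPA and at 11.44, 10.77 and 11.41 in corn oil. Every CPA array was lower, by 2.91 in the mean (SE 0.60, adjusted p = 0.00458), and the fall was 2.74 with the marker covariate (adjusted p = 7.46e-09). It held with each of the 6 arrays left out (adjusted p up to 0.0448) and not in a fit of these 6 arrays alone (adjusted p = 0.0545). The hepatocyte marker mean was 8.47, 8.49 and 9.83 in CPA and 9.51, 8.60 and 9.28 in corn oil.

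So Cyp2c7 was lower after 6 d of CPA in both fractions, by 1.41 in HC and 2.91 in MC, and the difference of these effects did not pass (1.51, 95% interval 0.23 to 2.78, adjusted p = 0.203). Cyp2c13 stood at 2.25, 2.17 and 3.76 in MC after CPA and at 1.98, 1.79 and 2.18 in corn oil, where replicate 3, the CPA array with the highest marker mean, was the high one. Its change of 0.74 did not pass (adjusted p = 0.576), and HC minus MC was 2.14 (SE 0.47, adjusted p = 0.00305), the only 1 of 8 to pass (4.58% of all genes). Most of these MC values lay near the bottom of the scale, where differences are compressed. In water at 24 h the level of Cyp2c13 in HC minus MC was 2.20. So part of a rise in MC could go unseen, which limits this comparison of fractions. The CPA effect at 6 d against 24 h in MC called 0 of 8 by limma (0.506% of all genes; 907 at an unadjusted p under 0.05), with Cyp2c7 at -3.27 (adjusted p = 0.0715). Cyp3a2 rose in MC as in HC, by 6.56 (adjusted p = 6.73e-09), and A1bg fell by 5.74 (adjusted p = 6.57e-06).

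**Figure D5:**
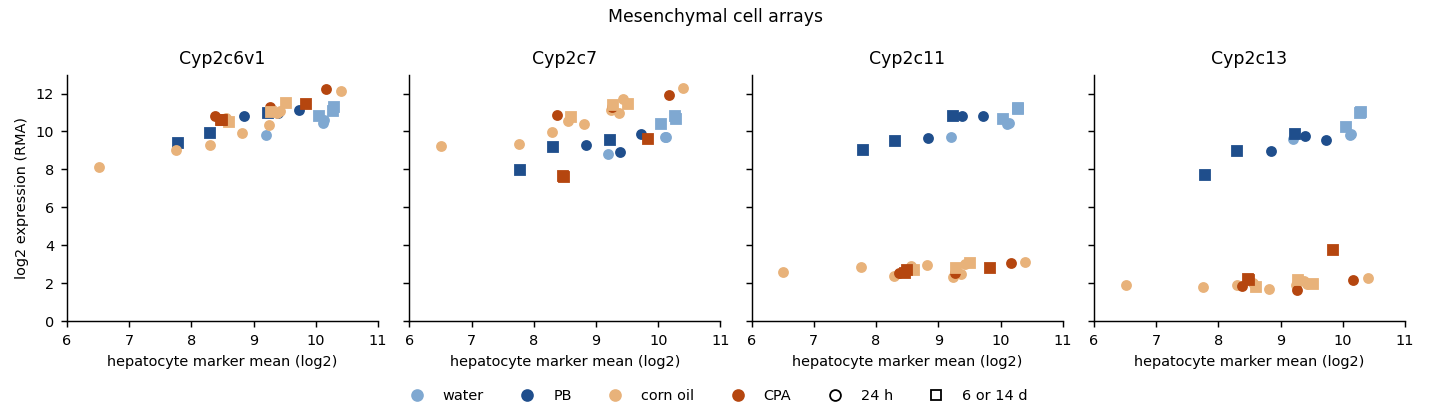
Log2 expression of 4 members (vertical axis) against the mean log2 level of 17 hepatocyte markers (horizontal axis) on the 30 MC arrays, coloured by group, circles for 24 h and squares for 6 d or 14 d. Cyp2c6v1 ran with the marker mean in male and female arrays, the 3 CPA arrays at 6 d lay below the corn oil arrays for Cyp2c7 at like marker means, and Cyp2c11 and Cyp2c13 ran with the markers in the male arrays and stayed low in the female arrays.

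The compounds were also set against each other at 24 h, where dose, sex and vehicle also differed, so none of these can be told apart from the compound. The PB effect exceeded the CPA effect for 1 of 8 genes in HC (20.8% of all genes), Cyp2c6v1, by 0.62 (SE 0.14, adjusted p = 0.00222). Its female controls stood at 12.59 and its male controls at 11.79, nearer to the top of the scale in females. In MC 0 of 8 differed by limma (0.113% of all genes; 1444 at an unadjusted p under 0.05), with Cyp2c6v1 at -0.28.

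For each member whose group means spanned at least 2 log2 units, the genes with the most similar pattern over the 18 groups were found by the mean absolute difference between median-centred group means. The closest to Cyp2c11 was Obp3, a male-specific lipocalin (0.49), then Hsd3b5 (0.74). The closest to Cyp2c13 was Sult1e1 (0.72), to Cyp2c12 Sult2a2, a sulfotransferase of female liver (0.96), and to Cyp2a2 Ust5r (1.18). Sh3d19 (0.25) and Rdh10 (0.25) were closest to Cyp2c6v1, Agtr1a, an angiotensin receptor (0.35), to Cyp2c7, and Sc5d, an enzyme of cholesterol synthesis (0.40), and Cyp4a3 (0.40) to Cyp2a1. Groups share sex, fraction and library makeup, so a small distance describes these 60 arrays only.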

How the data were processed

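Values were deposited by the authors on the log2 scale after RMA, per the submitters' processing notes. RMA corrects the background, normalises the arrays and summarises the probes of a probe set, and its version was not given in the sources used here. No further scaling was applied. The probe table gave 1 gene symbol for 20826 of the 31042 probe sets, several for 436 and no symbol for 9780. The probe set with the highest mean over 60 arrays stood for a gene, which left 14217 genes. The 8 members and the gene lists were chosen with earlier results of these data known.

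R 4.3.3 and limma 3.58.1 (lmFit, eBayes) fitted 1 mean per group over the 30 arrays of a fraction, or over 60 arrays for differences between fractions, with no sex term. Each gene had 1 spread over all groups of a fit, so an SE or interval does not measure the spread of the compared groups alone. Adjustment was by Benjamini-Hochberg over all 14217 genes, with calls at an adjusted p under 0.05. The fit was also run on simulated HC arrays with 1 spread per gene in all groups, which does not test unequal spreads between groups. From each list at most 4 called genes with the largest change are named. Genes most like a member were named where its group means spanned 2 log2 units or more.

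Same-numbered arrays were compared by the correlation of their deviations from group means. All pairs were above 0.1 for PB and water at 14 d in each fraction, and 14 of 24 treated and control pairs were overall. For HC and MC arrays 21 of 30 pairs were, with every pair above 0.1 in CO and PB at 24 h and in water and PB at 14 d. In these groups the numbers were taken to pair the arrays. Arrays of unlike number were not compared, so pairing is not established, and the labels do not say whether a number marks 1 animal. Alternatives were array weights, the sex term, a filter on means under 5, scaling to array medians, an intensity trend, fits of 2 groups alone, the replicate block, CO_Co as a control, a hepatocyte marker covariate in MC and each array left out. Within a fraction the replicate block was a term for the replicate number over all groups. Between fractions it was a correlation of 0.146 between same-numbered HC and MC arrays of all groups. Both covered groups whose numbers were not taken to pair arrays. The block within the 14 d pairs was added after seeing the data. The number of arrays limits the precision.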

Additional observations from a re-analysis of the deposited data

Results flagged for a closer look

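The PB effect at 14 d differed between hepatocytes and mesenchymal cells by the test of the difference itself for 3 members, with HC minus MC of 1.36 for Cyp2c11, 1.93 for Cyp2c13 and 2.16 for Cyp2a2. Of 17 hepatocyte markers 4 were higher in the same difference (median 1.96), and their part in it was not tested. With the marker mean as a covariate the PB changes in MC were -0.77, -1.35 and -1.57 for these genes, none of which passed (limma's adjusted p = 0.232, 0.0821 and 0.0520). The covariate had 1 slope over male and female MC arrays, and these genes stayed low in females. So it may correct them too little. The Cyp2a2 difference did not pass with array weights (adjusted p = 0.0618). The CPA effect at 6 d differed between the fractions for Cyp2c13, by 2.14. Most MC values of this gene lay near the bottom of the scale, where part of a rise could go unseen. The CPA effect in hepatocytes differed between 6 d and 24 h for Cyp2c7, by -1.25, and for Cyp2c13, by 3.48. Of the 32 combinations of a member with a corn oil group of 4 or 5 arrays that were checked for a single array far from the rest, 0 had one, where chance would give about 1 in 20. Groups of 3 arrays were not checked.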

How the results depend on the processing

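The number of members called changed as follows, and the cause was not tested. With only the 2 groups fitted it was 0 for PB at 24 h in HC (1 as reported; reported counts stand in brackets), 0 for CPA at 24 h in HC (2), 2 for PB at 14 d in MC (4) and 0 for CPA at 6 d in MC (1). For CPA at 24 h in HC it was 0 with the replicate block, 1 with scaling to array medians and 1 with both corn oil groups as control. The hepatocyte marker covariate gave 1 for PB at 24 h in MC (0) and 0 for PB at 14 d in MC. Array weights gave 1 for the CPA effect at 24 h between fractions (0), 2 for that at 6 d (1), 1 for the CPA effect of 6 d against 24 h in MC (0) and 3 for water at 14 d against 24 h in MC (0). The sex term gave 1 for HC against MC in corn oil (7). It was estimated from the arrays of PB and water at 24 h labelled female, which had male levels of Eif2s3y. So it cannot test this comparison, in which every array is labelled female. With 1 array left out, the count ran from 0 to 1 for PB at 14 d in HC, from 0 to 2 for CPA at 24 h in HC and from 2 to 4 for PB at 14 d in MC. Of the treated and control groups, the replicate numbers were taken to pair the arrays only for PB and water at 14 d. There the block left the members called at 0 in HC and 4 in MC. The numbers were also taken to pair HC with MC arrays in 4 groups. The replicate block left the members called at 3 for the PB effect at 14 d between fractions (2124 genes against 1441). It left them at 7 for HC against MC in corn oil (10354 against 9975). It changed no other count of members than that for CPA at 24 h in HC.

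Counts over all genes moved by over 1.5 times with array weights: PB at 24 h in HC 62 (11), PB at 14 d in HC 114 (9), PB at 24 h in MC 615 (0), PB at 14 d in MC 4069 (2614), CPA at 24 h in MC 2470 (361), CPA at 6 d in MC 1522 (317), effects between fractions 129 (0), 2317 (1199) and 2777 (651) for PB at 24 h and CPA at 24 h and 6 d, effects between times 23 (5) for PB in HC, 441 (1) for PB in MC and 918 (72) for CPA in MC, compounds in MC 2045 (16), water against corn oil 2535 (1404) in HC and 2118 (76) in MC, water over time in MC 4987 (2545), corn oil over time in HC 10 (0) and CO_Co against CO in HC 24 (10). PB at 14 d in HC gave 29 with the filter, 26 scaled to medians, 18 with the trend and 0 with 2 groups, and PB at 24 h in HC 2 with 2 groups. With the covariate PB at 24 h in MC gave 4 and CPA at 24 h in MC 617. The latter gave 209 with the block, 6 with 2 groups and 847 with both corn oil groups. CPA at 6 d in MC gave 176 with the filter, compounds in MC 7 with the block, water against CO_Co in HC 909, and HC against MC in corn oil 4730 (9975) with the sex term. Leaving out arrays gave 3 (PB replicate 3 or water replicate 1 out) to 31 (water replicate 3 out) for PB at 24 h and 2 (water replicate 1 out) to 747 (water replicate 3 out) for PB at 14 d in HC, 0 to 24 (water replicate 3 out) for PB at 24 h, 342 to 2546 for PB at 14 d and 57 (CPA replicate 3 out) to 993 (CPA replicate 1 out) for CPA at 24 h in MC.

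Of 224 member values, 58 passed in at least 1 setting and none of these changed sign, and 39 of the 166 that passed in none did. A second probe set per member was not run, since each has 1. The 3 arrays of most groups limit what can be seen, and levels near the top or the bottom of the scale are compressed.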
